A study of Mus musculus with 6 samples.

Results

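The HoxD cluster is a row of 9 homeobox genes on mouse chromosome 2: Hoxd1, Hoxd3, Hoxd4, Hoxd8, Hoxd9, Hoxd10, Hoxd11, Hoxd12 and Hoxd13. All 9 were on the array, each with 1 non-control probe matched by its RefSeq accession, out of 39429 non-control probes and 20832 named genes. The set was picked on the array values themselves, because the Hoxd13 end of the cluster was higher and Hoxd4 lower in cells without Rb, so the differences between the groups are described here and not tested. The array measured 6 cultures of primary mouse prostate cells, all lacking p53 (p53-/-). In 3 cultures (p53-/- Rbf/f) an adenovirus carrying lacZ left the floxed Rb gene intact, and in 3 (p53-/- Rb∆f/∆f) an adenovirus carrying Cre deleted it; RNA was taken 48 hours after infection. The cells grew in serum-free Prostacult medium with bFGF and bEGF. The labels do not say whether the cultures came from separate mice, so any spread may be technical, and vector and Rb status cannot be told apart.

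Hox genes encode transcription factors that give cells their position along the body axis. The genes of a cluster lie in the order of the axis levels at which they act: Hoxd1 to Hoxd4 serve anterior levels, and Hoxd9 to Hoxd13, related to Drosophila Abdominal-B, serve the trunk's posterior end, the limbs and the urogenital tract. In the male accessory glands Hoxd13 takes part in the shaping of the seminal vesicles and the prostate. Polycomb complexes keep silent Hox genes off, retinoic acid turns on the anterior ones, and Pbx and Meis proteins bind DNA together with Hox proteins. Rb restrains E2F transcription factors, which drive genes of S phase.

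The promoters of 3 genes that were higher and of the one that was lower in Rb deleted cells are shown, to set their base composition side by side. Each is the 250 bases before the annotated start, from RefSeq on GRCm38.p6, read 5′ to 3′, with every CpG in capitals.
Hoxd13 promoter (chr2:74667975-74668224, plus strand): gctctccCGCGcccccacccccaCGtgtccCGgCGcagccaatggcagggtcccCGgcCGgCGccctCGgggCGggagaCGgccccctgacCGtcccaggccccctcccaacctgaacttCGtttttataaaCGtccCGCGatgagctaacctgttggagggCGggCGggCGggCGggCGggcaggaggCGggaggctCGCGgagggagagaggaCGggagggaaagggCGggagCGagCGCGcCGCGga
Hoxd12 promoter (chr2:74674763-74675012, plus strand): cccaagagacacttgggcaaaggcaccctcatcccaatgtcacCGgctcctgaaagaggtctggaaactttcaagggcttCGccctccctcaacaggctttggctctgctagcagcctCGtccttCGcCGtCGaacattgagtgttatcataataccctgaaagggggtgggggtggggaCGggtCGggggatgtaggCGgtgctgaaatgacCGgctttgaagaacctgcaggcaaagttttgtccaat
Hoxd10 promoter (chr2:74691641-74691890, plus strand): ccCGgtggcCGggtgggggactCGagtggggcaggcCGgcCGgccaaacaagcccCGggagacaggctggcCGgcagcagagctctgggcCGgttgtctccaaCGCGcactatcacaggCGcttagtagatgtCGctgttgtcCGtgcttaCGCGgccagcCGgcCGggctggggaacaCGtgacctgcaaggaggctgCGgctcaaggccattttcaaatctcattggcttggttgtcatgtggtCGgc
Hoxd4 promoter (chr2:74721728-74721977, plus strand): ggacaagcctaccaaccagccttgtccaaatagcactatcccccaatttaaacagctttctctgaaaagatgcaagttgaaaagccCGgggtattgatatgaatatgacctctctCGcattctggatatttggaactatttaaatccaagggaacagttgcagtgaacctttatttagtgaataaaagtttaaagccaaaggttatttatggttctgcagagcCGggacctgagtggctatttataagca
The Hoxd13 window held 31 CpGs, more than 94.8% of all 32851 promoter windows of this length. Hoxd10 held 20, Hoxd12 held 10 and Hoxd4 held 3, while the median window held 6. GC content was 74.4% at Hoxd13, 55.6% at Hoxd12, 65.6% at Hoxd10 and 40.4% at Hoxd4. All 9 genes matched the table, with 10 windows because Hoxd11 has 2 annotated starts, whose windows held 2 and 20 CpGs. Of the other genes that were higher, Hoxd9 held 13 CpGs and Hoxd8 held 6, with 65.2% and 44.4% GC. Hoxd3 and Hoxd1, dark on every array, held 12 and 24. Whether CpG content goes with the direction of the difference was not tested.

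Motifs were searched by their letters on both strands. None of the 10 windows held the E2F-like letters TTTNNCGC, which 4.28% of all windows hold, and none held TTTACG, a posterior Hox motif found in 2.61%. The CCAAT box (letters CCAAT) was in 7 of 10 windows, against 33.8% of all. The nuclear receptor half-site AGGTCA, the unit bound by retinoic acid receptors, was in 4 windows, those of Hoxd10, Hoxd8, Hoxd4 and Hoxd3, against 14.0% of all. TATAAA was in the windows of Hoxd13 and Hoxd4 (12.4% of all), on both strands at Hoxd13 in overlapping matches, and TGATNNAT, a joint Pbx and Hox motif, was in 1 Hoxd11 window (7.68% of all). These are matches of letters and not sites, and the windows of one cluster are not independent of each other.

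Levels below are log2 intensity relative to each array's 75th percentile, and a difference is the Rb deleted mean minus the Rb intact mean on that log2 scale, ± SE of the fit. The targeted gene checked the labels: Rb1 dropped by 1.96 ± 0.05 (3.88-fold) in 3 of 3 Rb deleted arrays, with an adjusted p of 8.24e-05 by limma. The share of probes well above background ran from 59.0% to 63.3% over the arrays. The arrays lay on 2 slides, with all Rb intact arrays and Rb deleted 1 on the first and Rb deleted 2 and 3 on the second. Rb intact 1 stood apart from the other Rb intact arrays on the second principal component (22.3% of the variance), with a score of 22.83 against -15.08 and -14.49. Of 13717 genes tested, 20.3% changed (limma adjusted p under 0.05), 1297 up and 1481 down. Of the HoxD genes, 7 of 9 were tested, all well above background on all 6 arrays, and Hoxd1 and Hoxd3 were not well above background on any.

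The 4 genes at the Hoxd13 end were all higher without Rb. Hoxd12, which acts with its neighbours in the distal limb, had the largest difference. It read -3.24, -3.29 and -3.26 in Rb intact 1, 2 and 3, and -1.77, -1.76 and -1.91 in Rb deleted 1, 2 and 3. The groups lay 1.33 apart at their nearest, while the Rb intact arrays spanned 0.05 and the Rb deleted arrays 0.14. The difference was 1.45 ± 0.06, or 2.73-fold, the 20th highest difference among all genes tested.

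Hoxd10, which serves motor neurons of the lumbar cord and the limb, read -5.13, -5.07 and -5.11 in Rb intact and -3.97, -3.77 and -3.57 in Rb deleted 1, 2 and 3. Its Rb intact arrays were tight and its Rb deleted arrays spread over 0.40, with the array of the first slide lowest. The difference was 1.33 ± 0.10 (2.52-fold), and 1.13 within the first slide. Hoxd11, which shapes the forearm and the kidney together with Hoxa11, read -4.87, -5.16 and -5.25 in Rb intact and -3.82, -3.77 and -3.77 in Rb deleted. Here the spread lay in the Rb intact group, with Rb intact 1 the highest. The difference was 1.31 ± 0.10 (2.48-fold). The dimmest signals called well above background stood between -6.55 and -5.99. With a background model fitted to the median signals (normexp) their differences were 0.89 for Hoxd10 and 0.85 for Hoxd11.

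Hoxd13, the last gene of the cluster, needed for digits and the external genitalia, read 0.21, -0.36 and -0.41 in Rb intact 1, 2 and 3 and 0.53, 0.57 and 0.60 in Rb deleted. The groups did not overlap, but Rb intact 1 was much nearer to the Rb deleted arrays than the other Rb intact arrays were. The difference was 0.75 ± 0.17 (1.68-fold, 95% interval 0.35 to 1.15), and 0.95 without Rb intact 1. Its standard error was the largest of the 7 genes, and it had the 208th highest difference of all genes.

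**Figure D1:**
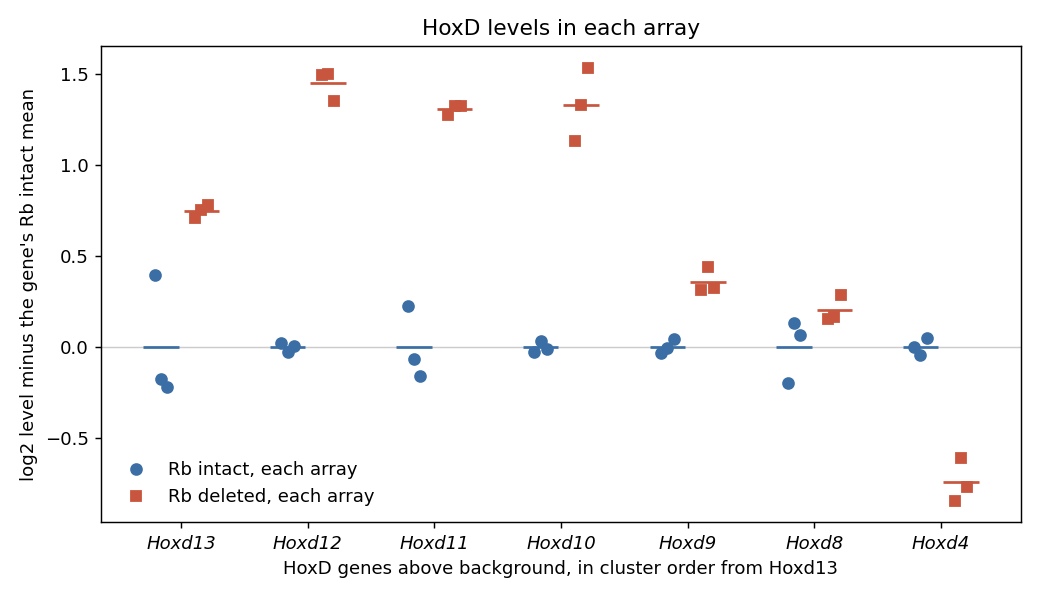
Each point is one array's log2 level of a HoxD gene minus that gene's Rb intact mean, with blue circles for the 3 Rb intact and red squares for the 3 Rb deleted arrays and bars for group means. Hoxd10, Hoxd11 and Hoxd12 lie more than 1 unit up in every Rb deleted array, and Hoxd4 is the one gene that lies below.

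Toward the middle of the cluster the differences shrank. Hoxd9, which with its paralogs patterns the lumbar and sacral region, read -4.29, -4.26 and -4.21 in Rb intact and -3.94, -3.81 and -3.93 in Rb deleted. The groups did not overlap, and the difference was 0.36 ± 0.06 (1.28-fold), or 0.23 with the normexp model. Hoxd8 read -1.12, -0.80 and -0.86 in Rb intact and -0.77, -0.76 and -0.64 in Rb deleted. Only 0.02 separated its groups, less than the range of either. The difference was 0.20 ± 0.10 with a 95% interval from -0.03 to 0.44, and 0.10 without Rb intact 1. Of the 7 genes Hoxd8 had the one interval that included 0. The genes were chosen by this contrast, so the intervals describe spread and test none of them.

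Hoxd4, an anterior gene that patterns the neck vertebrae and whose control by retinoic acid is well described, was the one gene that was lower. It read -2.72, -2.76 and -2.67 in Rb intact and -3.56, -3.33 and -3.49 in Rb deleted. Every Rb deleted array was below every Rb intact array, by at least 0.57. The difference was -0.74 ± 0.08, to 59.8% of the intact signal, and -0.85 within the first slide. Only 409 of the 13717 genes had a difference as low.

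Hoxd3 and Hoxd1, the genes next to Hoxd4 on its anterior side, gave no signal well above background in any array. Hoxd3 read between -8.40 and -7.51 and Hoxd1 between -8.34 and -7.87, all under the dimmest signal called well above background on any array, and no difference is given. The array thus leaves the anterior end beyond Hoxd4 unmeasured in these cells. In the fit, 5 of the 7 tested genes were past the threshold upward and 1 downward, where 9.46% and 10.8% of all genes were. The groups of all 7 did not overlap, as was so for 45.2% of all genes, 23.3% with Rb deleted higher and 21.8% with it lower. These counts come from the contrast that chose the genes. Across the 7 genes the difference went down with the order from Hoxd13 to Hoxd4 (Pearson's r = -0.77, Spearman's rho = -0.75), a description over 7 genes that share arrays and were picked for this pattern.

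Ratios between genes within one array do not depend on how arrays are scaled. The log2 ratio of Hoxd12 to Hoxd4 lay between -0.59 and -0.52 in the 3 Rb intact arrays and between 1.56 and 1.79 in the 3 Rb deleted arrays, a change of 2.19. That of Hoxd10 to Hoxd4 changed by 2.08, of Hoxd11 to Hoxd4 by 2.05 and of Hoxd13 to Hoxd4 by 1.49. Hoxd10 against Hoxd9, its direct neighbour, changed by 0.97, from -0.85 ± 0.05 to 0.12 ± 0.21 (SD, n = 3 each). Hoxd12 against Hoxd13 changed by 0.70, from between -3.46 and -2.85 in Rb intact arrays to between -2.51 and -2.30 in Rb deleted arrays. Each of these ratios describes how unequally 2 probes changed, and the ranges of the groups did not overlap for any of them. The genes were picked on this contrast, with the Hoxd13 end higher and Hoxd4 lower, so the separation is no test.

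The size of the differences moved with the processing and their sign did not. The groups of all 7 genes did not overlap, so settings that only left out or reweighted arrays could not change a sign. Over 19 other settings Hoxd12 ranged from 1.25 to 1.51, Hoxd11 from 0.85 to 1.45, Hoxd10 from 0.89 to 1.43, Hoxd13 from 0.58 to 0.96, Hoxd9 from 0.23 to 0.42, Hoxd8 from 0.10 to 0.27 and Hoxd4 from -0.85 to -0.67. The first slide alone, with 1 Rb deleted array, gave 1.28 for Hoxd11, 0.71 for Hoxd13, 0.31 for Hoxd9 and 0.15 for Hoxd8.

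**Figure D2:**
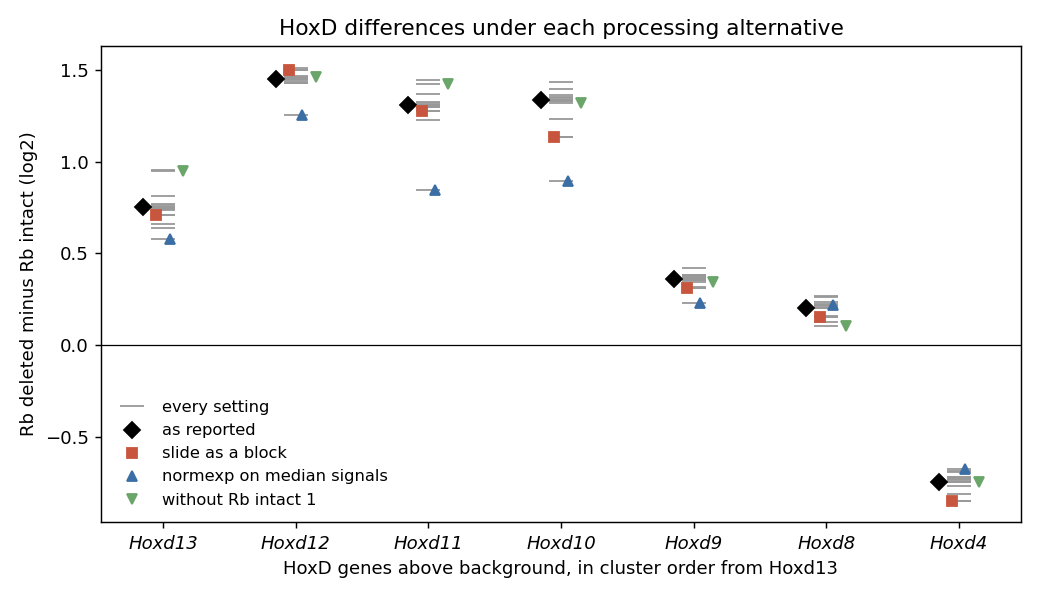
Each tick is the log2 difference of a HoxD gene, Rb deleted minus Rb intact, under one setting; the black diamond is the value reported and coloured symbols mark slide as a block, the normexp background model and the fit without Rb intact 1. Every value of the 6 genes from Hoxd13 to Hoxd8 lies above 0 and every value of Hoxd4 below, with normexp the lowest for Hoxd10 (0.89), Hoxd11 (0.85) and Hoxd9 (0.23).

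The genes around the cluster gave little to compare. Of the 5 nearest genes on each side, 1 per side was on the array. Mtx2, a mitochondrial import gene beyond Hoxd1, read 2.26, 2.49 and 2.42 in Rb intact and 2.52, 2.59 and 2.61 in Rb deleted. Its difference was 0.18 ± 0.08 (limma adjusted p = 0.138, 95% interval 0.0017 to 0.37), short of the threshold. Evx2, the homeobox gene beyond Hoxd13, was not well above background on any array. Inside the cluster, the noncoding Hoxd3os1 was well above background on 1 of 6 arrays, Rb intact 1.

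The other 3 Hox clusters served as a comparison that the choice of genes had not used by name, although their results were known. Of 30 HoxA, HoxB and HoxC genes 23 were tested, and 8 fell and none rose, where 10.8% and 9.46% of all genes fell and rose. With array weights 14 fell and 1 rose, but in that fit 6864 of all genes tested changed, 51.9% of them up. In the main fit the median difference of the 23 genes was -0.26, and the median of all genes tested was 0.01. Of the 8 falls, 7 are given here: Hoxb9 (-1.31 ± 0.29, adjusted p = 0.0267, above background in only 2 of 3 Rb deleted arrays), Hoxb8 (-0.84 ± 0.16, adjusted p = 0.016), Hoxc6 (-0.82 ± 0.08, adjusted p = 0.00182), Hoxc9 (-0.60 ± 0.10, adjusted p = 0.00997), Hoxc4 (-0.53 ± 0.09, adjusted p = 0.00991), Hoxb5 (-0.52 ± 0.11, adjusted p = 0.0208) and Hoxa5 (-0.52 ± 0.06, adjusted p = 0.00304), by limma with Benjamini-Hochberg adjustment. Hoxb9 entered through the Rb intact arrays, where it was higher, so its fall is no support for the count; its difference was -0.78 with normexp. With only probes well above background on all 6 arrays it was not tested, and 7 of 22 genes fell. All 8 were lower in 3 of 3 Rb deleted arrays than in any Rb intact array, which being called makes likely. Of the 23 tested genes 13, Hoxb9 among them, lay lower in Rb deleted without overlap, against 21.8% of all genes. Higher without overlap were 2, against 23.3% of all genes. Leaving out Rb deleted 1, 2 or 3 ended the calls of Hoxb5 and Hoxb9, leaving out Rb intact 2 that of Hoxb5, and leaving out Rb intact 3 those of Hoxb8 and Hoxb9. With slide as a block 3 of the 23 genes passed, Hoxa5, Hoxb5 and Hoxc6, and the closing section gives the count over all genes. The second slide held Rb deleted arrays only. The difference with slide as a block thus rests on Rb deleted 1 against the Rb intact arrays, as in the first slide alone. None of the 8 passed in the fit to the first slide alone.

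Each HoxD gene can be set beside its paralogs; whether they differ was not tested. Hoxd9 was at 0.36, while Hoxa9, Hoxb9 and Hoxc9 stood at -0.29, -1.31 and -0.60. Hoxd10 was at 1.33, while Hoxa10 and Hoxc10 stood at 0.23 ± 0.08 and -0.40 ± 0.28 (limma adjusted p = 0.0954 and 0.353). Hoxd11 was at 1.31, while Hoxa11 and Hoxc11 stood at 0.02 and 0.06. Hoxd13 was at 0.75, while Hoxa13 stood at -0.16 and Hoxb13, which guides the ventral prostate, and Hoxc13 were not well above background on any array. A dimmer Hoxa13 probe, also well above background on all 6 arrays, gave 0.10 with overlapping groups. Hoxd12 has 1 paralog, Hoxc12, which was well above background on 2 of 6 arrays, Rb deleted 2 and 3, and was not tested. On the anterior side Hoxd4 was at -0.74, and Hoxa4, Hoxb4 and Hoxc4 stood at -0.17, -0.18 and -0.53. Hox paralogs resemble each other in their homeobox, and whether they share probe signal was not tested.

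**Figure D3:**
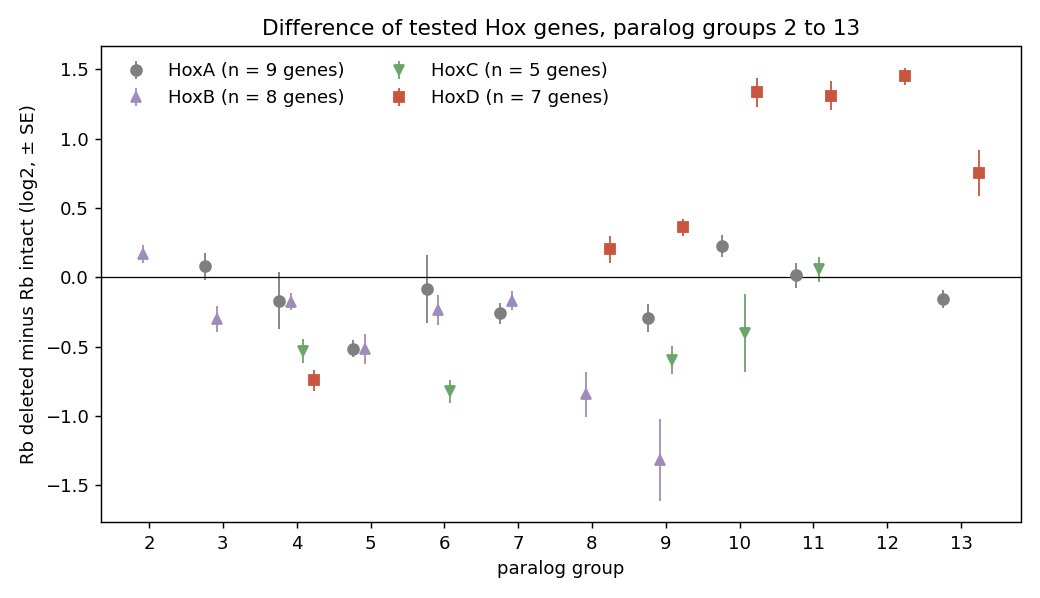
Log2 difference (Rb deleted minus Rb intact, ± SE) of 29 tested Hox genes of paralog groups 2 to 13, with grey circles for HoxA, purple and green triangles for HoxB and HoxC and red squares for HoxD. In groups 8, 9, 10, 11 and 13 the HoxD gene lies above its tested paralogs, from 0.20 for Hoxd8 to 1.33 for Hoxd10, and Hoxd12 (1.45) has no tested paralog, while Hoxd4 lies below 0 with the other genes of group 4.

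Genes that work with or upstream of Hox genes were taken from lists. Among TALE cofactors, 8 of 9 were tested and none passed the threshold in either direction in limma, with 1 at an unadjusted p under 0.05, Meis3 at -0.25 ± 0.09 (limma adjusted p = 0.0958). Meis1 and Meis2, both well above background, gave 0.06 ± 0.05 and -0.02 ± 0.05. The largest difference was that of Pbx3, 0.43 ± 0.19 (limma adjusted p = 0.169). Rb deleted was higher without overlap for 4 of the 8 and lower for 1, against 23.3% and 21.8% of all genes. Of 27 tested Polycomb genes 2 rose, a share near the 9.46% of all genes, and none fell, where 10.8% of all did. The groups did not overlap for 10 with Rb deleted higher and for 4 with it lower, against 23.3% and 21.8% of all genes. One of the 2 that rose was Pcgf5, of a variant PRC1 complex, by 0.26 ± 0.06 (limma adjusted p = 0.0307). Its call was lost without any 1 array other than Rb intact 1, and with slide or replicate as a block. It was also lost with median scaling, without scaling, with normexp and without the filter on dim probes. Ezh2 and Suz12, core subunits that write the silencing mark, gave 0.24 ± 0.13 and 0.20 ± 0.07 (limma adjusted p = 0.245 and 0.107). Of 14 tested Trithorax, demethylase and chromatin loop genes 1 rose, a share near the 9.46% of all genes. The one that rose was the cohesin subunit gene Rad21, by 0.30 ± 0.08 (limma adjusted p = 0.0494). The median of the 14 was 0.15, and the groups did not overlap for 9 with Rb deleted higher and for 1 with it lower, against 23.3% and 21.8% of all genes. The Rad21 call was also lost without any 1 array other than Rb intact 1, and with slide or replicate as a block. Quantile normalization, median scaling, no scaling and no filter on dim probes each ended it too.

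Of 16 tested retinoic acid genes, 4 rose and 2 fell, where 9.46% of all genes rose and 10.8% fell. Aldh1a3, which makes retinoic acid, fell by 1.05 ± 0.12 (2.06-fold; adjusted p by limma of 0.00248), while the retinol uptake receptor gene Stra6 fell by 0.88 ± 0.11 (adjusted p of 0.00371). The receptor gene Rxra rose by 0.93 ± 0.13 (1.90-fold, adjusted p = 0.00512) and Rxrb by 0.26 ± 0.05 (adjusted p = 0.0188), while another synthesis gene, Aldh1a2, rose by 0.46 ± 0.10 (adjusted p = 0.024). The receptors Rara, Rarb and Rarg gave 0.10 ± 0.06, -0.21 ± 0.27 and -0.06 ± 0.06, none past the threshold. Aldh1a3, Stra6 and Rxra passed whichever array was left out, whereas the Rxrb call was lost without any 1 array other than Rb intact 1. The Aldh1a2 call was lost without Rb deleted 1, 2 or 3. With slide as a block 1 of the 16, Aldh1a3, passed, and none within the first slide.

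Of 15 tested signals of limb and genital buds, where posterior HoxD genes act, 4 rose and none fell, with a median of 0.19; of all genes 9.46% rose and 10.8% fell, and the median was 0.01. Hand2, a partner of Hoxd genes in the limb bud, rose by 0.95 ± 0.15 (1.94-fold, limma adjusted p = 0.00895), Bmp4 by 0.56 ± 0.15 (adjusted p = 0.0473), Fgf10, a mesenchymal growth factor gene of budding glands, by 0.28 ± 0.05 (adjusted p = 0.0157) and the Bmp antagonist gene Grem1 by 0.22 ± 0.06 (adjusted p = 0.0463). Hand2 passed whichever array was left out. Bmp4 passed only without Rb intact 1, Grem1 only without Rb intact 1 or 3, and Fgf10 was lost without Rb intact 3 or Rb deleted 2 or 3. Epha7, described as a Hoxd13 target, gave -0.51 ± 0.19 (adjusted p = 0.118). With slide as a block none of the 15 passed.

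**Figure D4:**
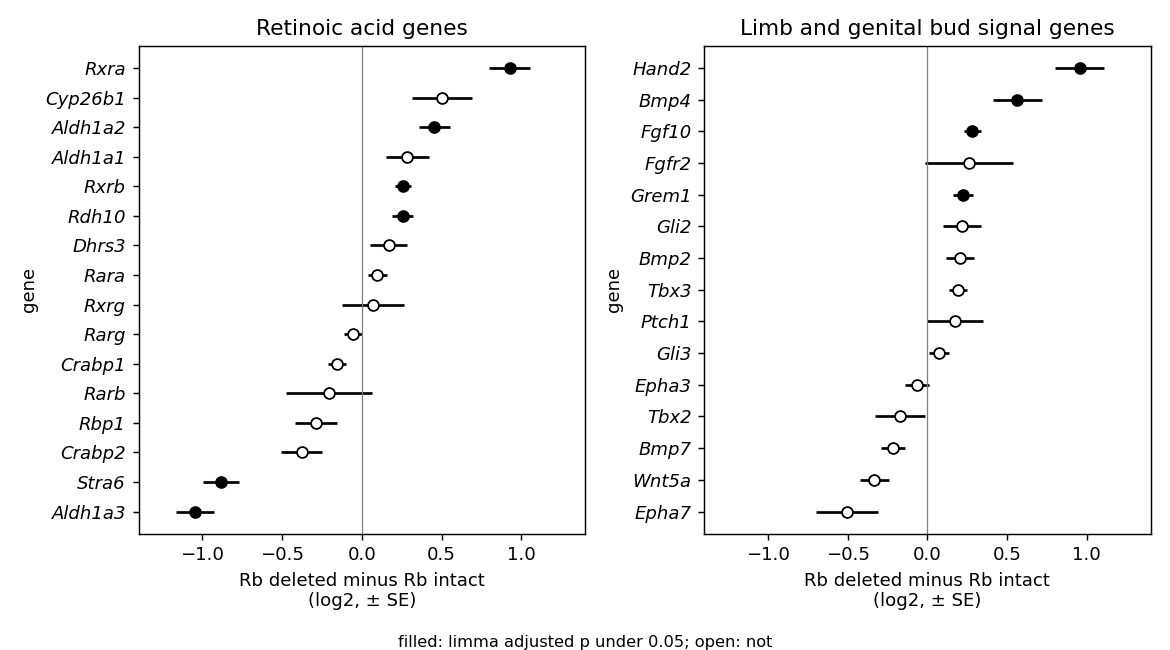
Log2 difference (Rb deleted minus Rb intact, ± SE) of each tested retinoic acid gene (left, n = 16) and each limb and genital bud signal gene (right, n = 15), filled where the limma adjusted p was under 0.05. The retinoic acid genes run from -1.05 for Aldh1a3 to 0.93 for Rxra, and the highest bud gene is Hand2 at 0.95.

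Genes with array patterns most like the members were sought over the 6 arrays among 13312 tested genes well above background on all of them. Closest to Hoxd12, the member with the highest difference, were the kinase gene Txk, the transporter gene Slco4a1 and Crybg1, each at Pearson's r = 0.999, with differences of 0.27, 1.09 and 0.71. Closest to Hoxd4 were Ggh, a folate hydrolase gene (r = 0.999), Tmsb15b1 (r = 0.998) and Ehf, an epithelial ETS factor gene (r = 0.998), with -0.41, -0.63 and -1.65. The arrays form 2 groups, so many genes share such a pattern: 74 had an r above 0.99 with Hoxd12 and 44 with Hoxd4.

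Some markers of the cell types that the cultures could hold also passed the threshold, where 10.8% of all genes fell and 9.46% rose. In bulk samples fewer cells of a type and less RNA per cell cannot be told apart. Fibroblast and smooth muscle markers fell in 5 of 12 tested with none up. The largest falls were those of smooth muscle contractile genes, down to -1.35. Some fibroblast genes also passed, with smaller falls, down to -0.40. Others did not pass, among them Col3a1 at -0.29, Col1a1 at -0.10, Col1a2 at 0.00, Pdgfra at 0.02 and Dcn at 0.08. The summed level of the list (linear, relative to the 75th percentile) was 410 to 427 in Rb intact and 362 to 386 in Rb deleted, and 1 of 14, Myh11, was not above background on any array. Basal markers fell in 5 of 7 tested and Jag1 rose, with sums of 29.7 to 35.5 and 21.7 to 22.2. Most of the basal sum was Itga6 alone, at a log2 mean of 4.87 in Rb intact and 4.29 in Rb deleted. The next brightest basal marker, Trp63, stood at 0.80 and 0.54, so the sum says little about the other basal genes. The luminal sum was likewise mostly Clu (3.57 and 2.94) and Krt18 (3.46 and 3.29). Luminal markers fell in 2 of 5 tested, with sums of 23.2 to 23.6 and 16.2 to 18.9, and 4 of 10, Psca and Hoxb13 among them, were not above background on any array. With slide as a block the calls of the basal Itga6, Dst and Jag1 and of both luminal genes, Clu and Cldn3, were lost, and that of Jag1 also with normexp and without Rb deleted 2 or 3. Dst was also lost without Rb deleted 2, and Cldn3 without Rb intact 2 or Rb deleted 1 or 3. Krt14, Krt18, Vim and Col1a1 were well above background on all 6 arrays, and Krt5 on 3. None of 3 tested leukocyte markers passed in limma (0 at an unadjusted p under 0.05), with 3 others dark, Ptprc and Lyz2 among them, and their sums were 2.75 to 6.76 and 4.13 to 4.81; of 4 endothelial markers Vwf fell, with sums of 3.79 to 3.93 and 3.29 to 3.96. Vwf was well above background on all 3 Rb intact arrays but on 1 of 3 Rb deleted arrays, so it entered the test through the group where it was higher; its difference was -0.97, and -0.43 with normexp. All 5 seminal vesicle secretion genes were dark on every array, and of 4 urothelial markers 1 was tested and did not pass, with sums of 0.085 to 0.090 and 0.079 to 0.086. The part of these shifts in the HoxD differences was not tested.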

How the data were processed

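Per the file headers, the authors made the intensity values with Agilent Feature Extraction 11.0.1.1 (10.7.3.1 per the submitters' processing notes), on an array designed on mm9, with 1 colour (Cy3). The deposited processed intensity is background-subtracted and not scaled between arrays; the deposited flags, valued 0 or 1, mark spots well above background, saturated or outlying. No spot was saturated. The authors also deposited log2 values, which equalled the log2 processed intensity minus a constant per array, within 0.01 for 100% of 22164 probes. Their scale and centring are stated nowhere in the labels; the column medians were -0.52, -0.49, -0.50, -0.51, -0.51 and -0.51, and their direction is that of the intensity.

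From 43020 non-control spots per array, outlying ones were left out and spots of a probe averaged, giving 39429 probes. The log2 intensity was shifted by each array's 75th percentile. Probes well above background on all 3 arrays of a group, with values on all 6, were kept, and each of 13717 genes was represented by its brightest probe. Names came from RefSeq accessions (GRCm38.p6 table; 27427 probes matched, 12002 did not); the table's build differs from the array's, so it served for names and order. Promoter coordinates are those of the promoter table. The comparison used lmFit and eBayes of limma 3.58.1 (R 4.3.3), with Benjamini-Hochberg adjustment, and was tested on simulated data. The number of arrays limits the precision. The members, lists and named genes were chosen with earlier results of these data known. Named were all HoxD genes, Rb1, each called gene of the other Hox clusters, up to 4 called genes per list and the 3 genes most like a member; others named beside them were chosen after their values were seen. A few genes of the lists are not reported here. The other settings are those of the closing section. Same-numbered cultures did not deviate together (correlations -0.03, -0.05 and 0.02).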

Additional observations from a re-analysis of the deposited data

How the results depend on the processing

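All 7 tested HoxD genes kept their direction under the 19 other settings, as did Rb1 its call (-1.98 to -1.74, highest limma adjusted p = 0.0211). For the HoxD genes, whose groups did not overlap, settings that only left out or reweighted arrays could not change the direction. The median HoxD difference, 0.75, was 0.58 with normexp on median signals and 0.96 with array weights, and 0.64 to 0.95 when 1 array was left out, highest without Rb intact 1. The count of changed genes, 2778, was 1287 without scaling, 1490 without a filter on dim probes, 6864 with array weights, 672 with slide as a block, 154 within the first slide and 1234 to 5105 with 1 array left out. The count of changed HoxA, HoxB and HoxC genes, 8, was 4 without the filter, 15 with array weights, 3 with slide as a block, 0 within the first slide and 5 to 13 with 1 array left out. Within the first slide only 1 Rb deleted array remains, whose spread is assumed to equal that of the Rb intact arrays. With slide as a block the difference rests on that same array, because the second slide held Rb deleted arrays only. The labels do not say whether the replicate numbers pair the cultures, and the low correlations of same-numbered cultures do not settle it. With a replicate block 1640 genes and 5 HoxA, HoxB and HoxC genes passed, and the HoxD median stayed at 0.75. Without scaling the median of all genes was 0.07, against 0.01. Of the calls up or down, 46.7% were up, 28.3% with slide as a block, 16.9% within the first slide and 51.7% in the deposited log2 values. For the other shifts the cause was not tested. In Rb intact arrays Hoxd10 and Hoxd11 had the least signal over background of the 7 genes.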
